A study of Mus musculus with 8 samples.

Results

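Igf2r and 8 other genes of the insulin-like growth factor (IGF) axis were followed on 8 Affymetrix expression arrays of the mouse hepatocyte line AML12. The 9 genes were Igf2r, Igf2, H19, Igf1, Igf1r, Igfbp1, Igfbp2, Igfbp3 and Igfbp4. Every probe set that the platform annotation lists under 1 of these genes alone was taken, which gave 23 of the 45036 probe sets with a value on all arrays and covered 8 of the 18192 genes named alone. They were 2 for Igf2r, 2 for Igf2, 4 for Igf1, 5 for Igf1r, 1 for Igfbp1, 1 for Igfbp2, 2 for Igfbp3 and 6 for Igfbp4. H19 had 0 of its own, because its probe set is listed jointly for H19 and Mir675, and that probe set is described apart. The genes were chosen with the difference between the lines known, so that difference is described here without a test.

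The arrays covered AML12 cells transfected with v-erbA and given 1 µM retinoic acid (RA), the same transfected cells without treatment, AML12 cells given 1 µM RA, and AML12 cells without treatment, each at 24 h and at 3 h. AML12 is an established line grown from the liver of a mouse that carried a human TGF-alpha transgene. The viral oncogene v-erbA, from an erythroblastosis virus of birds, encodes an altered thyroid hormone receptor that acts mainly as a repressor. There was 1 array for each of the 8 combinations, so the p-values below rest on the departure of the arrays from additive effects and measure only the spread between these samples, which may be technical. The effect of v-erbA and those of transfection and clonal selection cannot be told apart, and neither can time in culture and any difference in array handling between the times. Median signals of the arrays were 71.2 to 76.1 units, and their pooled median was 73.5 units. The hepatocyte markers Alb and Ttr gave 9364 to 11053 units and 10526 to 10879 units over the 8 arrays. Of the 13 measured hepatocyte markers 4 stood below and 1 above without overlap in the v-erbA line, and 8 overlapped between the lines. Over all probe sets tested 18.1% stood below and 18.8% above. The median log2 difference of the 13 was -1.05 (v-erbA minus AML12). Of 7 macrophage markers 3 exceeded the pooled median on some array and 2 on all 8, and of 7 endothelial markers 4 did on some array and 1 on all 8. The part of these shifts in the differences between lines was not tested.

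IGF1 and IGF2 are secreted growth factors that signal through the receptor tyrosine kinase IGF1R and circulate bound to IGF binding proteins, which limit or prolong their action. IGF2R, the cation-independent mannose 6-phosphate receptor, carries no kinase: it takes up IGF2 for breakdown in lysosomes and delivers newly made lysosomal enzymes there. In the mouse Igf2r and H19 are imprinted genes expressed mainly from the maternal copy and Igf2 from the paternal one. The adult liver is the main source of circulating IGF1, whereas Igf2 and H19 are high in fetal liver and fall after birth.

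The 3 genes on which the results turn, Igf2r and Igf1 for the difference between lines and Igfbp4 for the response to RA, have the following promoters (RefSeq, build GRCm38.p6), each from 250 bases before to 50 bases after a transcription start. Capitals mark AGGTCA, the half-site of retinoic acid and thyroid hormone receptors, CACGTG, an E-box that is also the core of a motif of lysosomal genes, and TATAAA, searched on both strands.
Igf2r, chr17:12769657-12769956, minus strand: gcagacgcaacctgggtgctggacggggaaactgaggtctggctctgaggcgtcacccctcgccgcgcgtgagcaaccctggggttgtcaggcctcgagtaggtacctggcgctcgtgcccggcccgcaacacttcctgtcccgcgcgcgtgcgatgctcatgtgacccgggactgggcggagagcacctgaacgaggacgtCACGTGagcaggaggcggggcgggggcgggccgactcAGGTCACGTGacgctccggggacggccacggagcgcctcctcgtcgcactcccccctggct
Igf1, chr10:87860861-87861160, plus strand: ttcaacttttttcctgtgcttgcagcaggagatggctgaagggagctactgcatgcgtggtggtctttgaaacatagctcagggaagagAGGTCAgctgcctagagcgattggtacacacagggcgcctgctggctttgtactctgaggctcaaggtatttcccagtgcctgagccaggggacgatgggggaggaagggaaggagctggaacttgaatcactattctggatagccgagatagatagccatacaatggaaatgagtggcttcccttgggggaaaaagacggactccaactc
Igfbp4, chr11:99040994-99041293, plus strand: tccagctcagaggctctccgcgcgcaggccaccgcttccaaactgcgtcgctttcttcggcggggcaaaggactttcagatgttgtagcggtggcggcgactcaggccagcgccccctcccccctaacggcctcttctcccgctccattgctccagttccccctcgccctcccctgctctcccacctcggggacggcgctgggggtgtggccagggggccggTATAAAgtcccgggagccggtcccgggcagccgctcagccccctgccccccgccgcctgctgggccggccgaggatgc
The Igf2r promoter held CACGTG at 2 positions, the one nearer to the start overlapping AGGTCA. The Igf1 promoter held AGGTCA at 1 position and the Igfbp4 promoter held TATAAA only. Among the promoters not shown, that of Igf1r and 1 of Igf2 also held AGGTCA, and 1 of Igfbp2 held CACGTG. Of the 32851 mouse promoters of that length, 16.3% held AGGTCA, 7.15% held CACGTG and 13.6% held TATAAA. Direct repeats of AGGTCA spaced by 5 and by 4 bases were found in 0.00913% and 0.0152% of them and in 0 of the 12 promoters listed for 8 of the 9 genes. These matches describe the letters in these windows only. In the same build Igf2r spans chr17:12682406-12769706, Igf1 chr10:87858265-87937047, Igf1r chr7:67952257-68233668 and Igfbp4 chr11:99040005-99052655. Igf2 (chr7:142650768-142666816) and H19 (chr7:142575530-142578146) are neighbours, as are Igfbp1 (chr11:7197787-7202546) and Igfbp3 (chr11:7206086-7215498).

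Igf2r was far lower in the v-erbA line. Probe set 1424111_at read 39.0 units with RA and 39.1 units without RA at 24 h, and 53.3 units with RA and 47.3 units without RA at 3 h, in v-erbA cells. In AML12 cells the signals were 675 units with RA and 689 units without RA at 24 h, and 581 units with RA and 603 units without RA at 3 h. The groups stood far apart, and all 4 v-erbA signals lay below the pooled median, so Igf2r was at least 7.02-fold lower in the v-erbA line by this probe set. The fold is the mean of the AML12 arrays against that median, on a log2 scale with an offset of 19.9 units. Fewer cells expressing the gene and less RNA per cell cannot be told apart in such bulk samples.

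The second Igf2r probe set, 1424112_at, read 64.5 units with RA and 73.9 units without RA at 24 h, and 65.9 units with RA and 65.4 units without RA at 3 h, in v-erbA cells. AML12 cells gave 469 units with RA and 467 units without RA at 24 h, and 370 units with RA and 410 units without RA at 3 h. Again no v-erbA array came near an AML12 array. The mean log2 difference, v-erbA minus AML12, was -2.36 ± 0.14 (SD over 4 matched pairs), a 5.12-fold lower signal. In v-erbA cells 3 of the 4 arrays lay below the pooled median. Of the 13 measured hepatocyte markers 4 stood below and 1 above in the v-erbA line, and 8 overlapped. The shares over all probe sets tested were 18.1% below and 18.8% above. Among the 13, Hnf4a and Cebpa differed by -0.63 ± 0.13 and -1.05 ± 0.08. They are lower members and do not stand for the 13, of which Alb and Ttr kept to the ranges given above over the 8 arrays. The part of such markers in the Igf2r difference was not tested.

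**Figure D1:**
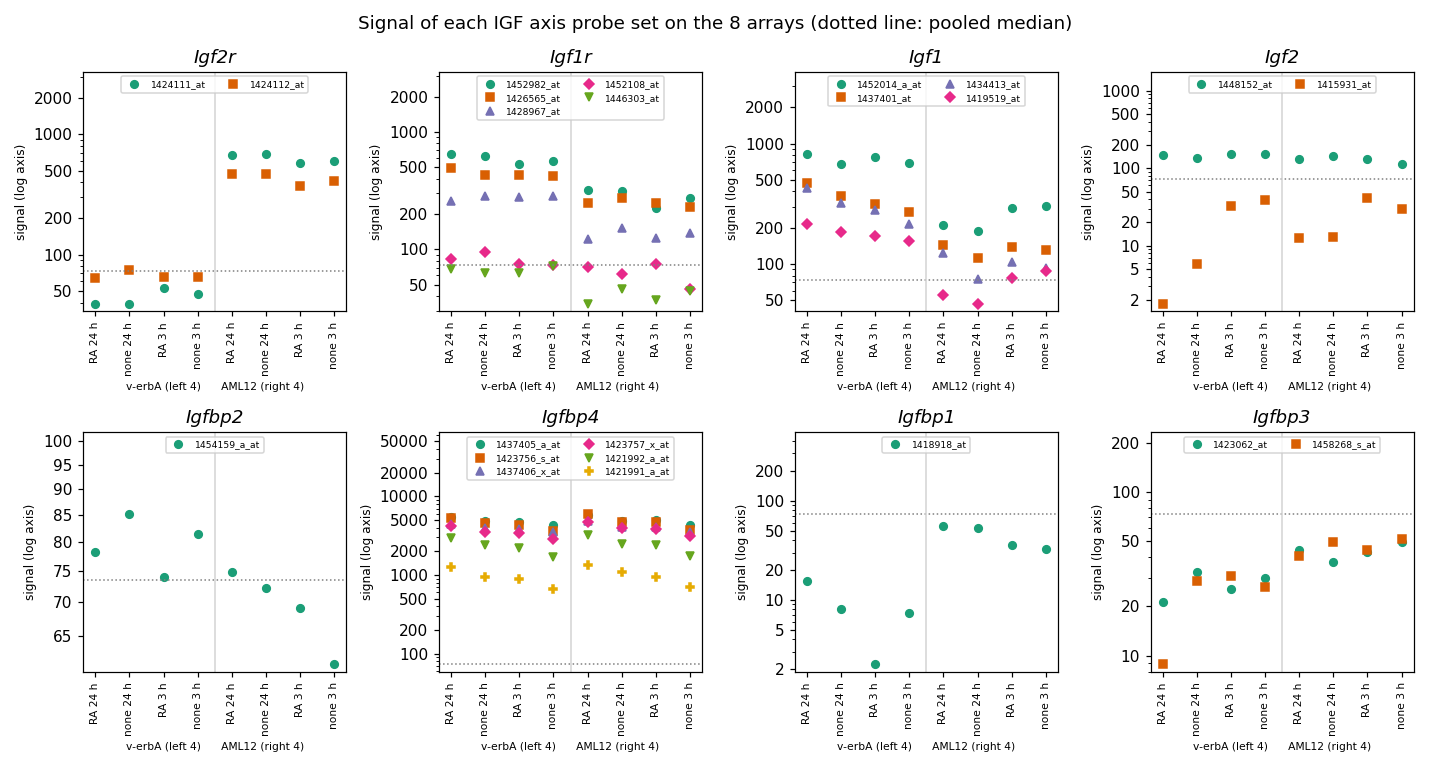
Signal of each of the 23 probe sets (vertical axis, logarithmic, 1 panel a gene) on the 4 v-erbA arrays and the 4 AML12 arrays (horizontal axis; "none" is untreated, 1 point an array). The Igf2r points of the v-erbA line lie between 39.0 and 73.9 units, around or below the pooled median of 73.5 units (dotted line), and those of AML12 between 370 and 689 units, while the Igfbp4 points of both lines overlap.

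The receptor and ligand on the signalling side differed the other way. Igf1r, the kinase that transmits the IGF signal, was higher in the v-erbA line by 3 of its 4 probe sets that passed the filter on dim signals (at least 2 of 8 arrays above the pooled median). Its brightest probe set, 1452982_at, read 652 units with RA and 629 units without RA at 24 h, and 528 units with RA and 567 units without RA at 3 h, in v-erbA cells. In AML12 cells it read 319 units with RA and 311 units without RA at 24 h, and 225 units with RA and 273 units without RA at 3 h. The lowest v-erbA array thus stood above the highest AML12 array, and the mean log2 difference was 1.03 ± 0.09 (SD, 4 pairs), or 2.04-fold. Probe sets 1426565_at and 1428967_at differed by 0.79 ± 0.14 and 0.95 ± 0.10, also without overlap. The dim probe set 1452108_at differed by 0.29 ± 0.25, and its groups overlapped. On 1446303_at all 8 signals lay below the pooled median, at 62.9 to 72.3 units in v-erbA cells and 34.3 to 46.2 units in AML12 cells.

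Igf1 was higher in the v-erbA line by all 4 of its probe sets. The brightest, 1452014_a_at, read 825 units with RA and 672 units without RA at 24 h, and 767 units with RA and 695 units without RA at 3 h, in v-erbA cells. In AML12 cells the signals were 212 units with RA and 188 units without RA at 24 h, and 294 units with RA and 302 units without RA at 3 h. The mean log2 difference was 1.52 ± 0.34 (SD, 4 pairs), or 2.87-fold. The other 3 probe sets, which share the gene and are not separate evidence of the samples, differed by 1.24 to 1.46, all without overlap between the lines. In each of the 4 the difference at 24 h exceeded the one at 3 h at the same treatment: for 1452014_a_at it was 1.87 with RA and 1.73 without RA at 24 h, against 1.33 with RA and 1.15 without RA at 3 h.

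Stellate cells and fibroblasts also make Igf1, and their markers were read beside it here. Of 9 such markers, 6 exceeded the pooled median on some array and 2 on all 8, and 0 were at 0 units. Their summed signal was 619 to 734 units in v-erbA cells and 516 to 614 units in AML12 cells. Of 6 past the filter, 2 stood above and 1 below without overlap in the v-erbA line, and 3 overlapped. Over all probe sets tested 18.8% stood above and 18.1% below. The median log2 difference of the 6 was 0.33, beside 0.02 over all. Dcn, the proteoglycan decorin, read 126 to 149 units in v-erbA cells and 18.8 to 51.8 units in AML12 cells, whereas the collagen gene Col1a2 read 102 to 125 units in v-erbA cells and 131 to 211 units in AML12 cells. The collagen gene Col3a1 lay below the pooled median on all 8 arrays, at 21.6 to 29.4 units in v-erbA cells and 17.5 to 27.9 units in AML12 cells. The part of these markers in the Igf1 difference was not tested.

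Igf2 signals were low and similar in both lines. Probe set 1448152_at read 146 units with RA and 137 units without RA at 24 h, and 152 units with RA and 154 units without RA at 3 h, in v-erbA cells. AML12 cells gave 132 units with RA and 142 units without RA at 24 h, and 132 units with RA and 115 units without RA at 3 h. The mean log2 difference of 0.16 ± 0.17 (SD, 4 pairs) was no larger than the spread of the pairs, and the groups overlapped. The other Igf2 probe set, 1415931_at, was below the pooled median on all 8 arrays, with 1.77 to 38.7 units in v-erbA cells and 12.4 to 41.3 units in AML12 cells, so no fold is given.

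Of the binding proteins, Igfbp4 was bright and nearly level between the lines. Its 6 probe sets differed by -0.16 to -0.04 on the log2 scale, v-erbA minus AML12, and the groups overlapped in all 6. Igfbp2 read 74.1 to 85.2 units in v-erbA cells and 61.0 to 74.9 units in AML12 cells, around the pooled median, with a log2 difference of 0.16 ± 0.12. Igfbp1, an acutely regulated liver binding protein, lay below the pooled median on all 8 arrays, with 2.24 to 15.5 units in v-erbA cells and 32.7 to 55.7 units in AML12 cells. Igfbp3, the main carrier of IGFs in plasma, was as dim, with 21.3 to 32.7 units in v-erbA cells and 37.6 to 49.3 units in AML12 cells on 1423062_at, and 8.89 to 30.9 units in v-erbA cells and 40.7 to 51.4 units in AML12 cells on 1458268_s_at. For Igfbp1 and Igfbp3 the lines did not overlap, but signals at this level have no fold.

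Of the 18 probe sets past the filter, 7 (Igf1 and Igf1r) had all v-erbA arrays above all AML12 arrays, 2 (Igf2r) had them below, and 9 overlapped. Over all 21319 probe sets tested, 18.8% stood above and 18.1% below without overlap, and after centring of the arrays on their medians these were 15.7% and 19.9%. Since the genes were chosen on this contrast, nothing is read from the comparison of these shares. The median log2 difference of the 18 was 0.16, beside 0.02 over all probe sets tested.

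**Figure D2:**
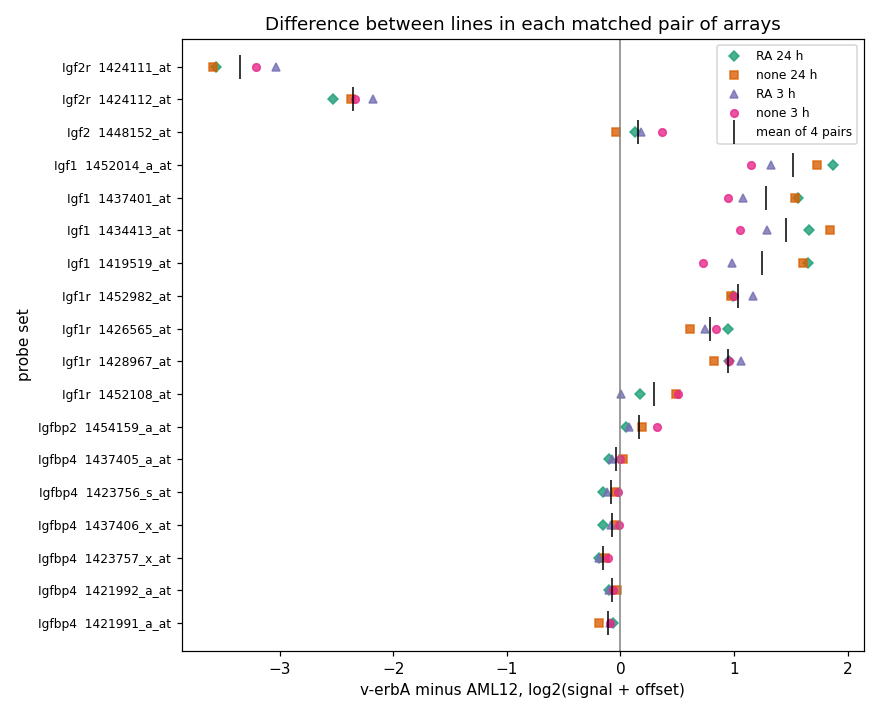
Log2 difference between v-erbA and AML12 arrays at the same treatment and time (horizontal axis, offset of 19.9 units; 4 points a probe set, bar at their mean) for the 18 probe sets past the filter. The Igf2r points lie lowest, between -3.59 and -2.18, those of 1424111_at being measured against v-erbA signals that are all under the pooled median. The Igf1 probe sets lie between 0.72 and 1.87 and the Igfbp4 probe sets close to 0.

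The genes whose pattern over the 8 arrays was most like that of Igf2r probe set 1424111_at, 1 probe set a gene among 12015 genes, were Kyat3, a kynurenine aminotransferase (Pearson's r = 0.999), Hsd17b7, an enzyme of sterol synthesis (r = 0.998), Crtap, a collagen prolyl hydroxylation partner (r = 0.998), Bst1, an ectoenzyme that makes cyclic ADP-ribose (r = 0.997), and Klhl13, an adaptor of a ubiquitin ligase (r = 0.997). The points are 4 arrays of each line, so r mostly reflects the step between the lines. Its size differed among them: Kyat3 differed by -3.81 ± 0.17 and Hsd17b7 by -0.61 ± 0.06 (v-erbA minus AML12, SD over 4 pairs). Over the same 8 arrays r with this Igf2r probe set was 0.996 for the second Igf2r probe set and -0.943 to -0.972 for those of Igf1.

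Igfbp4 rose with RA. Its product binds IGFs and mostly inhibits their action. On the probe set with the largest change, 1421991_a_at, signals in v-erbA cells were 1271 units with RA and 947 units without RA at 24 h, and 892 units with RA and 656 units without RA at 3 h. In AML12 cells they were 1331 units with RA and 1086 units without RA at 24 h, and 950 units with RA and 699 units without RA at 3 h. RA was higher in 4 of 4 matched pairs, and the log2 difference was 0.39 ± 0.05 (SE; limma adjusted p = 0.00486), or 1.31-fold.

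All 6 Igfbp4 probe sets rose with RA, each higher in 4 of 4 pairs. Probe set 1421992_a_at rose by 0.38 ± 0.03 (limma adjusted p = 0.00187), 1423756_s_at by 0.28 ± 0.03 (limma adjusted p = 0.00395) and 1423757_x_at by 0.25 ± 0.03 (limma adjusted p = 0.00492). Without the variance trend 1423756_s_at and 1423757_x_at lost their calls (limma adjusted p = 0.0898 and 0.0953), as did the remaining pair, 1437405_a_at and 1437406_x_at (0.232 each). The pair with the smallest changes, 1437406_x_at and 1437405_a_at, rose by 0.19 ± 0.03 and 0.18 ± 0.03 (limma adjusted p = 0.0234 and 0.0190). They are among the brightest, with mean signals of 4058 and 4896 units over the 8 arrays against 979 units for 1421991_a_at, and each lost its limma call in 6 of the 8 fits with 1 array left out (adjusted p up to 0.115 and 0.112). These were, for both, the fits without the AML12 untreated array of 3 h, the AML12 RA array of either time, and the untreated or RA v-erbA array of 24 h. For 1437406_x_at the sixth was the one without the untreated AML12 array of 24 h, and for 1437405_a_at the one without the untreated v-erbA array of 3 h. The 6 probe sets report 1 transcript and are not replicates of the treatment.

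No other probe set of the 9 genes passed for RA. In all, 6 of 18 were called and all were higher, beside 1.22% of the 21319 probe sets (0.769% called higher and 0.45% lower). The median log2 difference of the 18 was 0.14, beside -0.0023 over all probe sets tested. As 6 of the 18 report Igfbp4, this median is not that of the genes. After centring of the arrays on their medians the calls over all probe sets were 224 higher and 74 lower in place of 164 and 96. For Igf2r probe set 1424111_at the RA response could be read in AML12 cells only, since its v-erbA signals all lay under the pooled median, and there it was -0.03 at 24 h and -0.05 at 3 h. Probe set 1424112_at, with 3 of 4 v-erbA signals under that median, gave -0.07 ± 0.07 over both lines (SE; limma adjusted p = 0.796) and 0.01 at 24 h and -0.14 at 3 h in AML12 cells. Igf1 probe set 1434413_at was higher with RA in 4 of 4 pairs by 0.37 ± 0.12 and did not pass (limma adjusted p = 0.273), and the other 3 Igf1 probe sets differed by 0.08 to 0.24. Igf1r differed by -0.13 to 0.14, Igf2 by 0.04 ± 0.08 and Igfbp2 by -0.01 ± 0.09.

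The study asked whether RA responses differ in the presence of v-erbA. For the 18 probe sets the difference of the RA effect between the lines was -0.41 to 0.15 on the log2 scale, and 0 passed with limma (0 at an unadjusted p under 0.05). Over all probe sets 394 of 21319 had an unadjusted p under 0.05 and 0% passed after adjustment. For Igfbp4 probe set 1421992_a_at the log2 response in v-erbA cells was 0.31 at 24 h and 0.40 at 3 h, against 0.38 at 24 h and 0.43 at 3 h in AML12 cells. The difference between the lines was -0.05 ± 0.08, with a 95% interval from -0.22 to 0.12. Over the 6 Igfbp4 probe sets this difference was -0.10 to 0.06, positive only on 1421991_a_at and most negative on 1423756_s_at. On 1423756_s_at the response in v-erbA cells was 0.21 at 24 h and 0.23 at 3 h, against 0.33 at either time in AML12 cells.

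**Figure D3:**
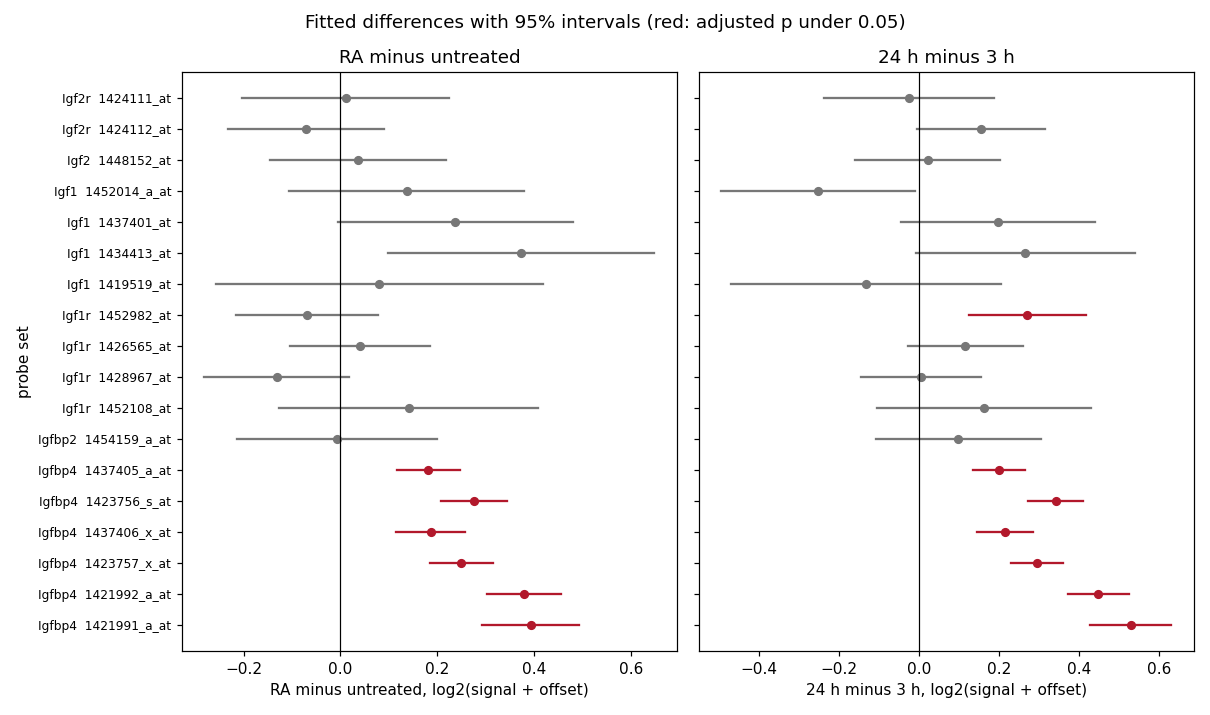
Fitted log2 differences (horizontal axes, offset of 19.9 units) for RA minus untreated (left) and 24 h minus 3 h (right) for the 18 probe sets past the filter, with 95% intervals; those of Igf2r include v-erbA signals under the pooled median. Red marks an adjusted p under 0.05: 6 Igfbp4 probe sets for RA, and these and 1 of Igf1r for time.

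Igfbp4 also rose between 3 h and 24 h. Probe set 1421991_a_at rose by 0.53 ± 0.05 (SE; limma adjusted p = 1.4e-05, higher at 24 h in 4 of 4 pairs), or 1.44-fold. The other 5 probe sets rose by 0.20 to 0.45, each in 4 of 4 pairs. On 1421992_a_at the arrays of 24 h and 3 h did not overlap, with 2397 to 3197 units at 24 h and 1692 to 2394 units at 3 h. In both lines the array with RA at 24 h was the highest on all 6 Igfbp4 probe sets.

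Of the other genes Igf1r rose with time on 1 of 4 probe sets, 1452982_at, by 0.27 ± 0.07 (limma adjusted p = 0.0113), while the others differed by 0.00 to 0.16. In all 7 of 18 probe sets were called higher at 24 h and 0 lower, beside 31.4% of all probe sets (17.2% higher and 14.2% lower). The median log2 difference of the 18, of which 6 report Igfbp4, was 0.18, beside 0.02 over all. Of the 7, 6 report Igfbp4 alone, and 3 of the 4 samples titled 24 h carry a description naming 3 h. After such centring 2870 were higher and 3739 lower over all probe sets, in place of 3660 and 3036. Igf2r probe set 1424112_at differed by 0.15 ± 0.07 and did not pass (limma adjusted p = 0.131).

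For Igf1 the difference between 24 h and 3 h was more positive in v-erbA cells than in AML12 cells on all 4 probe sets, but not past the threshold. Probe set 1452014_a_at differed between 24 h and 3 h by 0.10 with RA and -0.05 without RA in v-erbA cells, against -0.44 with RA and -0.63 without RA in AML12 cells. On 1419519_at the differences were 0.31 with RA and 0.20 without RA in v-erbA cells. They were -0.36 with RA and -0.69 without RA in AML12 cells, whose 24 h signals (54.7 and 46.5 units) lay under the pooled median. On 1437401_at and 1434413_at v-erbA cells rose by 0.40 to 0.58. AML12 cells there differed by 0.05 and 0.20 with RA and by -0.19 and -0.25 without RA. The difference between the lines was 0.54 to 0.78 over the 4 Igf1 probe sets, with limma adjusted p of 0.213 to 0.371. The 0.78 is that of 1419519_at. Of the 18 probe sets 0 passed this test with limma and 5 had an unadjusted p under 0.05, the 4 of Igf1 and 1424111_at of Igf2r, whose v-erbA signals give no readable change. This compares with 0.0985% called (0.0375% higher and 0.061% lower) and 1818 of 21319 at an unadjusted p under 0.05 over all probe sets.

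**Figure D4:**
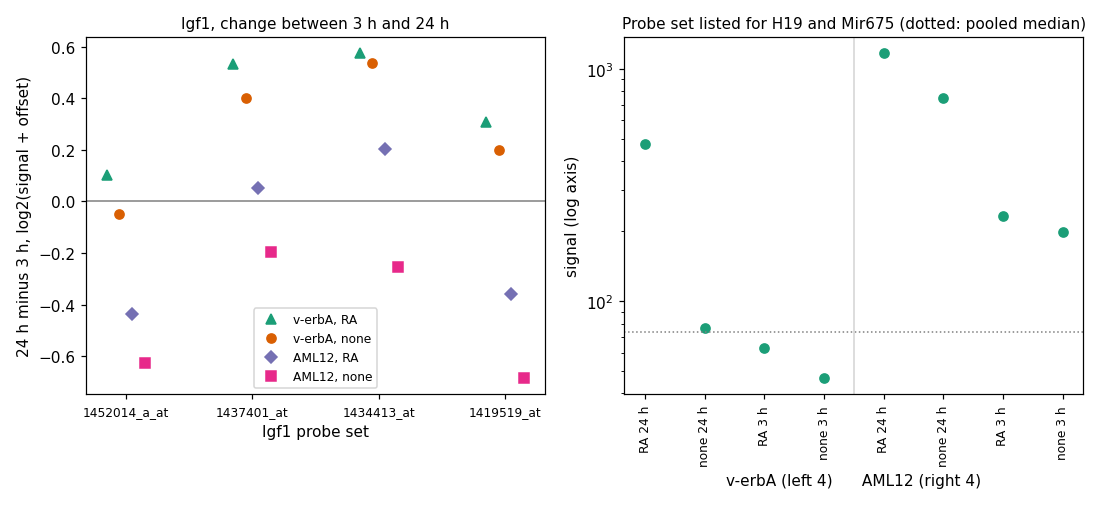
Left, log2 difference between 24 h and 3 h for the 4 Igf1 probe sets, 1 point for each line and treatment. The untreated AML12 points are the lowest of each probe set, from -0.69 to -0.19. The -0.69 is that of 1419519_at, whose AML12 signals of 24 h lay under the pooled median. Right, signal (logarithmic axis) of the probe set listed for H19 and Mir675 on the 8 arrays, with the pooled median dotted; it reaches 1170 units in AML12 cells and 474 units in v-erbA cells, both with RA at 24 h.

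The probe set listed jointly for H19, a long noncoding RNA, and Mir675, the microRNA that lies within the H19 gene, could not be assigned to either name by the annotation. The mature microRNAs are given with the seed (bases 2 to 8) in capitals (RefSeq, build GRCm38.p6), because they come from inside the transcript that this probe set may report. Their positions are chr7:142577112-142577133 for the 5p arm and chr7:142577078-142577099 for the 3p arm, both on the minus strand.
mmu-miR-675-5p: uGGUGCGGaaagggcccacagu
mmu-miR-675-3p: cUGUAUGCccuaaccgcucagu
Its signal was 474 units with RA and 76.7 units without RA at 24 h, and 62.5 units with RA and 46.5 units without RA at 3 h, in v-erbA cells. In AML12 cells it was 1170 units with RA and 749 units without RA at 24 h, and 233 units with RA and 199 units without RA at 3 h. Within each treatment and time the v-erbA array was the lower one, but the ranges of the lines overlapped. Both v-erbA signals of 3 h lay under the pooled median.

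In a fit over all 24955 probe sets past the filter, whatever they name, which was chosen after seeing the data, this probe set rose by 1.79 ± 0.29 between 3 h and 24 h (SE; limma adjusted p = 0.00129, higher in 4 of 4 pairs). Of all probe sets in that fit 30.4% were called for time. With RA it was higher in 4 of 4 pairs by 0.88 ± 0.29 and did not pass (limma adjusted p = 0.262), and the pair difference was 2.35 at 24 h in v-erbA cells, against 0.63 at 24 h and 0.21 at 3 h in AML12 cells. The probe set listed jointly for Igf2r and Airn lay below the pooled median on all 8 arrays, at 36.0 to 55.4 units in v-erbA cells and 36.6 to 69.7 units in AML12 cells. Airn, the noncoding RNA that runs antisense through Igf2r and silences its paternal copy, has a probe set of its own, which read 608 units with RA and 551 units without RA at 24 h, and 425 units with RA and 493 units without RA at 3 h, in v-erbA cells. In AML12 cells it read 419 units with RA and 454 units without RA at 24 h, and 350 units with RA and 309 units without RA at 3 h. The lines overlapped (log2 difference 0.42 ± 0.19, SD over 4 pairs), and Airn rose with time by 0.36 ± 0.07 (limma adjusted p = 0.00402).

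Other genes of the pathway were read from lists, with 1 probe set a gene. Their counts stand beside 18.8% above and 18.1% below without overlap between the lines over all probe sets tested. With time 17.2% of all were called higher and 14.2% lower. With RA 1.22% of all were called, so 0 RA calls in a list are near that share. The overlap is judged over all 4 arrays of a line, whatever their treatment and time. Among 17 IGF signalling genes past the filter, 4 stood above and 2 below without overlap in the v-erbA line, with a median log2 difference of -0.01, beside 18.8% and 18.1% over all probe sets. The regulatory kinase subunit gene Pik3r3 (1.37 ± 0.32) and the catalytic subunit gene Pik3cb (0.54 ± 0.15) were higher, as was the receptor adaptor Grb14 (0.41 ± 0.06). The forkhead factor Foxo3, which IGF signalling holds out of the nucleus, was lower, with a difference of -0.81 ± 0.09, as was the subunit gene Pik3r2 with -0.36 ± 0.10. With RA 1 gene rose and 1 fell: the kinase subunit Pik3r1 rose by 0.30 ± 0.06 (limma adjusted p = 0.0357), and Irs1, the docking protein that links the receptors to that kinase, fell by 0.41 ± 0.07 (limma adjusted p = 0.0225), in 4 of 4 pairs each.

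Irs1 signals showed the fall in every pair. They were 341 units with RA and 546 units without RA at 24 h, and 444 units with RA and 547 units without RA at 3 h, in v-erbA cells. In AML12 cells they were 459 units with RA and 631 units without RA at 24 h, and 535 units with RA and 644 units without RA at 3 h. With time 2 signalling genes rose, the insulin receptor gene Insr (0.47 ± 0.05, limma adjusted p = 8.09e-05) and Grb14 (0.22), and 2 fell, Pik3r3 (-0.38) and the docking protein gene Irs2, which read at most 42.0 units at 24 h and 78.3 to 204 units at 3 h and was at least 1.60-fold lower. At 3 h Irs2 read 165 units with RA and 204 units without RA in v-erbA cells, against 78.3 units with RA and 102 units without RA in AML12 cells.

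Among 7 IGF binding and processing genes past the filter, 2 stood above and 0 below in the v-erbA line: the RNA-binding protein Igf2bp1 (0.69 ± 0.20) and the protease inhibitor Stc2 (0.46 ± 0.12). With RA 0 of the 7 passed with limma and with time 2 rose, Igfbp5 (0.59 ± 0.08, limma adjusted p = 3.58e-04) and Igfbp7 (0.11), and Igf2bp1 fell (-0.27). Over all probe sets 18.8% stood above and 18.1% below, and 31.4% were called for time and 1.22% for RA. Of 8 genes that pass or inhibit the growth hormone signal to Igf1, 1 had no overlap between the lines. It was Socs2, an inhibitor induced by that signal, at 159 to 237 units in v-erbA cells and 68.0 to 141 units in AML12 cells (0.88 ± 0.58). Ghr, which overlapped, differed more evenly over the 4 matched pairs, by 0.42 ± 0.14. With time 4 of the 8 rose and 0 fell, beside 17.2% called higher over all probe sets, among them the growth hormone receptor gene Ghr (0.52 ± 0.06, limma adjusted p = 1.82e-04), the inhibitor Cish (0.46) and the kinase gene Jak2 (0.40), and with RA 0 passed.

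Genes listed for mannose 6-phosphate sorting differed in both directions between the lines. Many of their products use IGF2R or share its route, but the list also holds plasminogen system genes such as Plat and Plaur. Of 28 past the filter 7 stood above and 9 below in the v-erbA line, beside 18.8% and 18.1% over all probe sets, with a median of -0.03. The cathepsin gene Ctsh (-0.89 ± 0.13), the plasminogen activator gene Plat (-0.59 ± 0.12) and the cathepsin gene Ctsb (-0.37 ± 0.01) were lowest, and the lysosomal glucosidase gene Gaa (0.33 ± 0.06), the urokinase receptor gene Plaur (0.32 ± 0.11) and the hexosaminidase gene Hexa (0.30 ± 0.14) were highest. M6pr, the other mannose 6-phosphate receptor, differed by -0.13 ± 0.02 (SD, 4 pairs). With RA 0 of the 28 passed, beside 1.22% called over all probe sets. With time 7 rose and 2 fell (31.4% called over all probe sets). Among them were the lysosomal lipase gene Lipa (0.35), Ctsh (0.22) and Gaa (0.19), and the galactosidase gene Gla (-0.49) and Ctsl (-0.09).

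Of 20 other imprinted genes past the filter, 4 stood above and 4 below in the v-erbA line, shares near the 18.8% and 18.1% over all probe sets, with a median of 0.08. The sarcoglycan gene Sgce read 746 to 1024 units in v-erbA cells and 149 to 191 units in AML12 cells (2.23 ± 0.12), and Usp29 differed by 0.59 ± 0.18. Dcn lay below the pooled median on all AML12 arrays and was at least 1.69-fold higher in the v-erbA line. Impact read 415 to 454 units in v-erbA cells and 880 to 1052 units in AML12 cells (-1.10 ± 0.16), the transporter gene Slc22a18 differed by -0.76 ± 0.24, and Phlda2, a restrainer of placental growth with each of the 4 v-erbA signals under the pooled median, was at least 1.17-fold lower. With RA 0 of the 20 passed, beside 1.22% called over all probe sets. With time 5 rose and 2 fell, near the 31.4% called over all probe sets. Snrpn, below the pooled median on all 3 h arrays, was at least 2.43-fold higher at 24 h. Airn and Sgce (0.27) rose, and Mest and Magel2 fell to signals below that median on all 24 h arrays.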

How the data were processed

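Cell RNA was extracted with Trizol, cleaned on columns and biotin-labelled, per the labels' protocols. As deposited by the authors, the values are linear signal intensities from 0 to 12275 units; how they were summarized and scaled is not stated in the labels or files. Groups were taken from the sample titles, also for 3 samples titled 24 h whose description names 3 h. Of 45037 probe sets 1 lacked values and was left out; of the rest 34944 named 1 gene, 932 several and 9160 none, and those naming 1 gene were used. Signals were transformed to log2(signal + 19.9), the offset being their 20th percentile. Probe sets with at least 2 of 8 arrays above the pooled median (73.5 units) were tested, 21319 in all.

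RA and time effects were fitted additively with line (4 residual degrees of freedom), and differences between lines from models with 1 interaction term and 3. The software was limma 3.58.1 under R 4.3.3, with its intensity trend for variances and Benjamini-Hochberg adjustment over all probe sets tested, at a threshold of 0.05. Means between lines are given ± SD over 4 matched pairs, and fitted effects ± SE. Where the lower group was under the pooled median throughout, a fold is the mean of the higher group against that level. Tested on simulated data with 200 of 21319 probe sets changed by 1 on the log2 scale, the fits recovered 95% for RA, 96.5% for time, 58% for line by RA and 57.5% for line by time. False calls were 4, 13, 3 and 10. Estimates for the 18 probe sets were smaller, at most 0.39 for RA, 0.53 for time and 0.78 for line by time. Recovery at such sizes was not measured. The number of arrays limits the precision.

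The 9 genes and the gene lists were chosen with earlier results of these data known. From each list the text names up to 3 genes in each direction past the threshold with 4 of 4 pairs alike, or without overlap between the lines. No genes were set beside H19, because no probe set names it alone. Plots used matplotlib 3.10.9 and Python 3.11.15.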

Additional observations from a re-analysis of the deposited data

Results flagged for a closer look

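The probe set listed jointly for H19 and Mir675 enters no test of the 9 genes because it names more than 1 gene. On the v-erbA array with RA at 24 h it read 474 units, above the 76.7 units of the untreated v-erbA array of that time. No other array of that combination exists here, so this difference has no replicate check, and its cause was not tested. The tests of a difference between lines, in the response to RA and in the change with time, called 0 of the 18 probe sets.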

How the results depend on the processing

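Alternatives were another offset, other filters, centring or quantile scaling, 1 probe set per gene, no mean-variance trend, all 2-way interactions, each array left out, and, chosen after seeing the data, all probe sets whatever they name. Among the 9 genes, the calls for RA and time, the differences between lines of each gene's brightest probe set and the Igf2r bound were recomputed, and none of these that was called or did not overlap changed sign. The gene lists and interaction estimates of single probe sets were not. Median centring turned the balance over all probe sets, with 2870 higher and 3739 lower for time in place of 3660 and 3036, and 15.7% above and 19.9% below for the lines in place of 18.8% and 18.1%. For RA 6 probe sets were called, 1 when each gene had 1 probe set (Igfbp4), 2 without the trend, and 4 to 6 with single arrays left out. After quantile scaling 5 were called, and 1437406_x_at missed the threshold (limma adjusted p = 0.0511). The 2 left without the trend were close to it (limma adjusted p = 0.0494 for 1421991_a_at and 0.0465 for 1421992_a_at). For time 7 were called, 2 with 1 probe set per gene, where 6 were tested, and 7 to 9 with single arrays left out. For time 1 call was lower in 3 fits: without the filter (8 called), with all 2-way interactions (9 called, and 7 for RA) and without the v-erbA RA array of 24 h (8 called). Line by RA gave 0 to 0 and line by time 0 to 0 with single arrays left out, and the probe sets without overlap between lines numbered 9 to 10, against 9. The bound for Igf2r was 4.70-fold at the 60th percentile in place of 7.02-fold, and no bound could be given at the 40th, which some v-erbA signals exceeded. With the pooled median as offset the Igf2r difference was -2.59 in place of -3.35. Over all probe sets, calls for RA were 260, and 141 with 1 probe set per gene, 36 without the trend, 1271 with all 2-way interactions, and 99 and 196 without the untreated AML12 array of 3 h and of 24 h, 61 and 159 without the AML12 RA array of 3 h and of 24 h, 142 and 102 without the untreated v-erbA array of 3 h and of 24 h, and 267 and 133 without the v-erbA RA array of 3 h and of 24 h. Those for time were 6696 and 4179 with 1 probe set per gene. Those for line by time were 21, and 37 with the pooled median as offset, 34 without the filter, 40 after median centring, 11 with at least 4 of 8 arrays above the median, 12 with 1 probe set per gene, 4 and 159 without the untreated AML12 array of 3 h and of 24 h, 4 and 297 without the AML12 RA array of 3 h and of 24 h, 11 and 6 without the untreated v-erbA array of 3 h and of 24 h, and 10 and 6 without the v-erbA RA array of 3 h and of 24 h. Those for line by RA were 0, and up to 7 without the AML12 RA array of 3 h. The causes were not tested. No paired analysis by replicate number was possible because the labels give none, whereas arrays matched by treatment and time were paired through the terms of the model. Signals near or under the pooled median limit Igfbp1, Igfbp2, Igfbp3 and Igf2.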

Other observations

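Among 12 genes past the filter that bind or act at H19, Igf2 or Igfbp1, 5 stood above and 2 below without overlap in the v-erbA line, beside 18.8% and 18.1% over all probe sets tested, with a median log2 difference of 0.17. The DNA methyltransferase gene Dnmt3a read 184 to 300 units in v-erbA cells and 92.5 to 125 units in AML12 cells (1.08 ± 0.35, SD over 4 pairs), and Igf2bp1 and the liver forkhead factor Foxa1 (0.38 ± 0.15) were also higher. The liver factors Hnf4a (-0.63 ± 0.13) and Foxa2 (-0.22 ± 0.05) were lower. With RA Hnf4a fell by 0.27 ± 0.05 (limma adjusted p = 0.0390, lower in 4 of 4 pairs), and 0 rose, beside 1.22% called over all probe sets. With time the stress factor Atf4 rose by 0.29 ± 0.04 and 4 genes fell (31.4% called over all probe sets), among them the methylation maintenance factor Uhrf1 (-0.61), Igf2bp1 (-0.27) and Hnf4a (-0.25). Igf2bp1 is in 2 of the lists.

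Of the 34 mannose 6-phosphate sorting genes listed, 22 had a promoter sequence. Of these 11 held CACGTG, as the Igf2r promoter did, beside 2187 of all 27025 genes. CACGTG was searched as the core of a motif of lysosomal genes, and many genes of the list are lysosomal. Nothing is therefore read from this share, and a control shared with Igf2r was not tested.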
